A study of Mus musculus with 8 samples.

Results

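The genes described here are the chemokines and their receptors of the adult mouse heart, measured in single-nucleus RNA libraries made with 10x Genomics droplets. They are all gene rows whose symbol starts with Ccl, Cxcl, Cx3cl, Xcl, Ccr, Cxcr, Cx3cr, Xcr or Ackr followed by a digit: 67 of 32285 rows, with 61 different symbols, of which 44 rows are ligands and 23 are receptors. The study set non-transgenic mice (nTg, labelled as wild type) beside mice that constitutively express the cell cycle gene CCNA2 (Tg), in females and males. The labels give adult heart tissue for every group. They name neither the promoter that drives the transgene, nor an age or strain, nor whether each library came from an animal of its own.

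Of the 8 deposited matrices, 5 had as many columns as their own barcode list and were used. They are labelled nTg female (replicate 1), Tg female (1 and 2) and Tg male (1 and 2), and they are named by label throughout. The second nTg female matrix and both nTg male matrices repeated the values of the second Tg female matrix and of both Tg male matrices, and were not used. Levels are given in CPM: the UMIs of a gene scaled to a total of 1000000 UMIs in each library and cell type. Ccna2, the gene of the transgene, stood at 444 CPM in cardiomyocyte nuclei of the library labelled nTg female 1 and at 0.524 in the library labelled Tg female 1, which goes against both labels. It stood at 828 in Tg female 2 and at 232 and 143 in the male libraries. The used libraries held 25045167 to 38593706 UMIs and gave 5773 to 8817 nuclei each after filtering. Clustering without the member genes and without the genes that overlap them gave 14 cell types named from marker genes, of which 8 had at least 50 nuclei in every library. The library labelled Tg female 2 stood apart. Its macrophage nuclei held 1372 CPM of the 10 fibroblast markers, against 238 to 362 in the other libraries, and 1 fibroblast cluster made up 23.5% of its nuclei against 2.24% to 6.17% elsewhere.

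Chemokines are small secreted or membrane-held proteins that guide cells carrying the matching receptors, which couple to G proteins. Constitutive chemokines place and retain cells in healthy tissue, while inflammatory chemokines are switched on by signals such as NF-kappaB and interferons and draw in monocytes, neutrophils or lymphocytes. Atypical receptors (the Ackr genes) bind chemokines without the usual G protein signal and take them up. Resident macrophages of the heart, fibroblasts and endothelial cells are all known sources of chemokines in this organ.

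Upstream sequence is shown for 5 ligands that stand for the sources described below: Cxcl1 of fibroblasts and Cxcl2 of macrophages, which are neighbours on chromosome 5, Ccl9 of macrophages, Cxcl14 of fibroblasts and Cxcl12 of endothelium. Each run holds 210 bases, from 250 to 41 bases before the RefSeq start of the gene, 5′ to 3′ on the gene's own strand, in build GRCm38.p6. Capitals mark matches on either strand to any of 4 motifs that were searched: the NF-kappaB motif, the AP-1 letters TGANTCA, the interferon-type letters GAAA, any 2 bases, GAAA, and the TATA letters TATAAA, some of which can overlap one another. The first run lies at chr5:90890995-90891204 on the plus strand, the second at chr5:90903649-90903858 on the plus strand, the third at chr11:83578677-83578886 on the minus strand, the fourth at chr13:56296592-56296801 on the minus strand and the fifth at chr6:117168285-117168494 on the plus strand.
Cxcl1: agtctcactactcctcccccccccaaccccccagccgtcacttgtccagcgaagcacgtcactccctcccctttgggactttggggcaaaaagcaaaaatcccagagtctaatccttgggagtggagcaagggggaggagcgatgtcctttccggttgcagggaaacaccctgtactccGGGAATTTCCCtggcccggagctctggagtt
Cxcl2: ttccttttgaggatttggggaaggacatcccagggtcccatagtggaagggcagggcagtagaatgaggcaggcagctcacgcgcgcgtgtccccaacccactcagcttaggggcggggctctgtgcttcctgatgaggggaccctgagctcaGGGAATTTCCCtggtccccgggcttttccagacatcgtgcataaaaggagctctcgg
Ccl9: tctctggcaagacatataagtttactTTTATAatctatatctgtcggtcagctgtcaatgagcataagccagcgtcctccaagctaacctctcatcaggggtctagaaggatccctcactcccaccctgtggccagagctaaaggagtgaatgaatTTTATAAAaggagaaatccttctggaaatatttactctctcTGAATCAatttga
Cxcl14: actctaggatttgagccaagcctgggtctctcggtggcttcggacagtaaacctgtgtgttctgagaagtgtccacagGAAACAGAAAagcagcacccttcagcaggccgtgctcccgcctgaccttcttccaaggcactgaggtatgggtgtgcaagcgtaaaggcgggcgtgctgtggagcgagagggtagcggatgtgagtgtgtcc
Cxcl12: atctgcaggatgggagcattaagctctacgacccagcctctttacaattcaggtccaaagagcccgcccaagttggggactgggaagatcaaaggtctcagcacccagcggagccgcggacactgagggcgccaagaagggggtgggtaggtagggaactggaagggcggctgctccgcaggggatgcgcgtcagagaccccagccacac
Cxcl1 and Cxcl2 carried the same NF-kappaB run, GGGAATTTCCC, from 71 and from 97 bases before the start. Ccl9 had 3 matches to TATAAA in 2 separate runs and 1 TGAATCA run, Cxcl14 had 1 interferon-type run, and Cxcl12 had no match in these bases. For 46 member symbols with a RefSeq window of the full 250 bases, the window nearest to the annotated gene start was taken, and 8 held the NF-kappaB motif (Ackr2, Ccl20, Ccl9, Ccr3, Cxcl1, Cxcl10, Cxcl2 and Cxcl3), 5 held TGANTCA, 3 held the interferon-type motif and 13 held TATAAA. Over all 53 windows of these symbols, 9, 6, 3 and 15 held these motifs, beside 3.9%, 6.75%, 2.98% and 12.4% of all 32851 windows. A match is a description of letters only.

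Macrophages led more chemokine and receptor genes than any other main cell type. UMIs were found for 56 of the 67 rows, and 40 rows (26 ligands and 14 receptors) had at least 50 UMIs over the 5 libraries and are described by cell type. For 18 of the 40 genes, 1 cell type was highest in every library and its range did not overlap that of the next type, beside 25.5% of the 19116 genes with as many UMIs. Of the 40, 18 had their highest mean in macrophages. Of these, 9 were also apart from the next type in the way given, beside 6.95% of all genes. The share of all genes that merely had their highest mean in a given type was not counted, so the 18 has no such comparison. It includes genes at low levels, such as Ccl5 and Ccl17, with macrophage means of 1.43 and 0.697 CPM. Fibroblasts led 6 genes (4 apart, beside 2.83% of all genes), endothelial nuclei 4 (1 apart, beside 2.43%), lymphatic endothelium 4 (2 apart, beside 1.67%) and cardiomyocytes 3 (2 apart, beside 7.15%). Endocardium led 2 genes, pericytes 2 and smooth muscle 1, with 0 of them apart, beside 1.04%, 1.86% and 1.56% of all genes. Without the library labelled Tg female 2, 19 of 37 genes with at least 50 UMIs were apart in this way. Since the nuclei were grouped by their own expression, these levels are a description with no test.

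**Figure D1:**
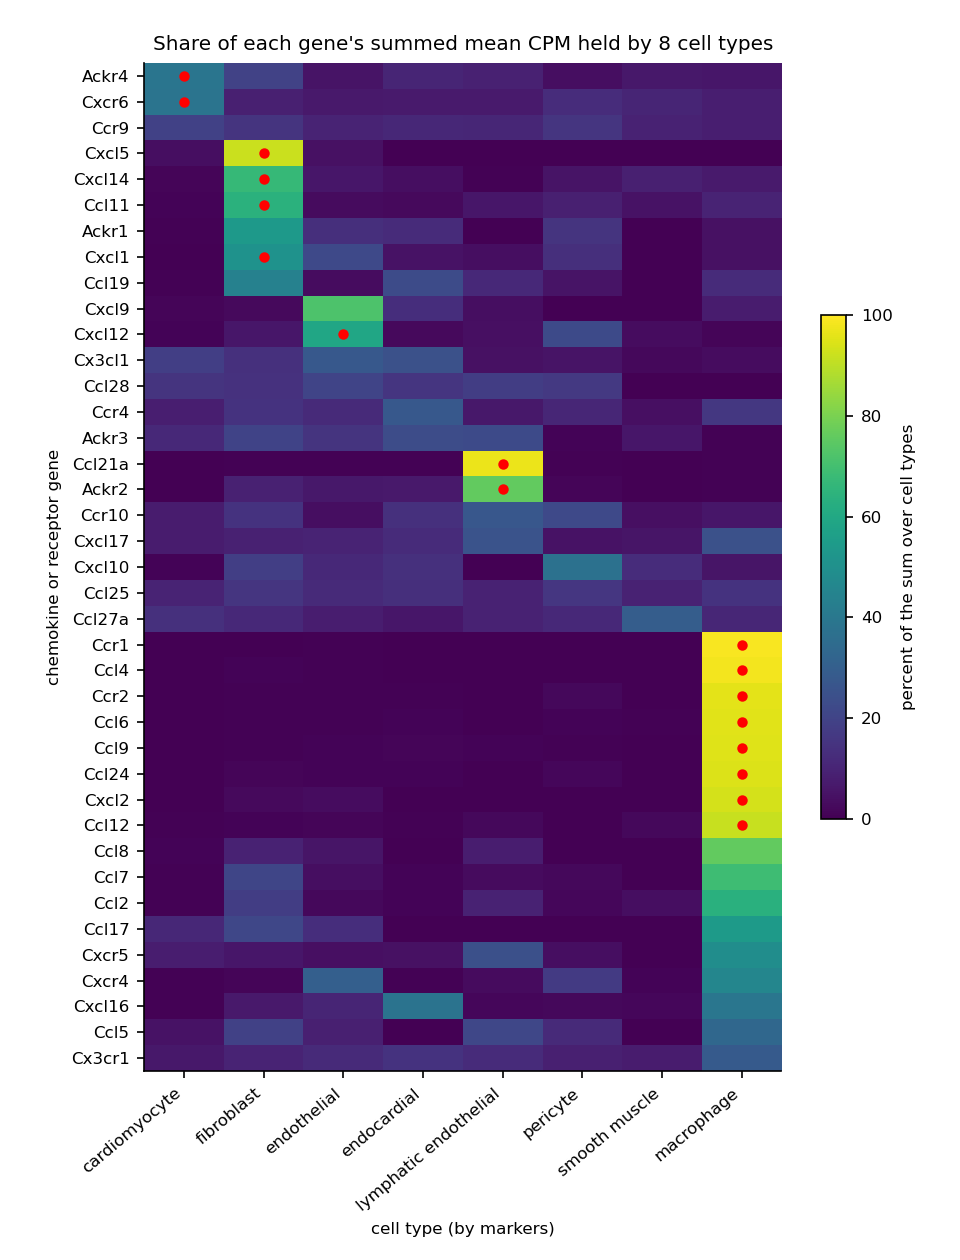
Share of the summed mean CPM of each of 39 described genes that falls in each of the 8 main cell types, in percent as a colour, with genes in rows, cell types in columns and a red dot where the leading type was apart from the next. Ccl6, Ccl9, Ccl24 and Ccr1 are concentrated in the macrophage column, Ccl21a in lymphatic endothelium, and Ccl25 is spread over all types.

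Cxcl12, the ligand that holds stem and immune cells near vessels through Cxcr4, was highest in the endothelium of blood vessels. Endothelial nuclei held 343, 414, 300, 272 and 364 CPM in the 5 libraries (always with the nTg library first, then Tg female 1 and 2, then Tg male 1 and 2). Pericytes, the contractile cells that wrap capillaries, followed with 122, 197, 118, 116 and 86.9 CPM. Every endothelial value was above every pericyte value, and fibroblasts were lower again at 23.3 to 54.1 CPM. At least 1 UMI of Cxcl12 was seen in 35.8% of endothelial nuclei at a median depth of 1926 UMIs, beside 3.48% of cardiomyocyte nuclei at a median of 6993 UMIs. After every nucleus was thinned to 1000 UMIs the shares were 23.9% and 0.709%. The gene lies at chr6:117168535-117181367 on the plus strand of GRCm38.

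Ccl21a, the ligand that leads dendritic cells and T cells into lymphatic vessels, belonged to lymphatic endothelium. Its level there was 3706, 6291, 1646, 3958 and 3252 CPM, the lowest being the library labelled Tg female 2. Endocardium, the next type, held 10.97, 17.9, 48.1, 25.7 and 14.4 CPM, and here the library labelled Tg female 2 was the highest. That library was the highest for Ccl21a in 7 of the 7 main cell types outside lymphatic endothelium. Of 766 lymphatic nuclei, 561 (73.2%) held a UMI, with up to 194 in 1 nucleus, against 3.60% of macrophages at a like depth (medians of 2392.5 and 2244 UMIs). Thinned to 1000 UMIs, the shares were 67.4% and 1.73%. The gene lies at chr4:42772860-42773993 on the minus strand, and its near-identical copies Ccl21b and Ccl21c had 0 UMIs, so the counting may have assigned reads of several copies to 1 row. Ccl21a also lies wholly inside 4930578G10Rik of the opposite strand, and whether reads of that gene were counted for it was not tested.

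Cxcl14, a ligand of epithelia and stroma that attracts monocytes and dendritic cells, was a fibroblast gene. Fibroblasts held 47.3, 27.0, 28.6, 55.0 and 68.0 CPM, with the 2 libraries labelled Tg female lowest, and no other main type passed 10.2 CPM in any library. Cxcl16, which exists as a membrane-held and a shed form and binds Cxcr6, was at like levels in macrophages (61.0, 70.5, 60.2, 45.0 and 45.5 CPM) and in endocardium (64.5, 65.8, 43.5, 46.2 and 51.9 CPM). The ranges of those 2 types overlapped. Cx3cl1, the membrane-held ligand of Cx3cr1, was low everywhere, with 2.80 to 6.43 CPM in endothelial nuclei and 2.29 to 7.2 in endocardium.

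Other constitutive ligands had no single source. Ccl25, known as the thymus and gut ligand of Ccr9, was spread over all 8 main types, with means from 31.8 CPM in smooth muscle to 52.9 in pericytes. Cxcl17, a mucosal ligand, reached 10.997 to 42.7 CPM in lymphatic endothelium and 19.4 to 37.5 in macrophages. Ccl27a, best known from skin, was highest by mean in smooth muscle, but that mean rested on 24.6 CPM in the library labelled nTg female 1, and the other 4 libraries held 3.40 to 7.87 CPM. Ccl19, the second ligand of Ccr7, stood at 0.483 to 2.84 CPM in fibroblasts, and Ccl28 at no more than 2.67 CPM in any main type and library.

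**Figure D2:**
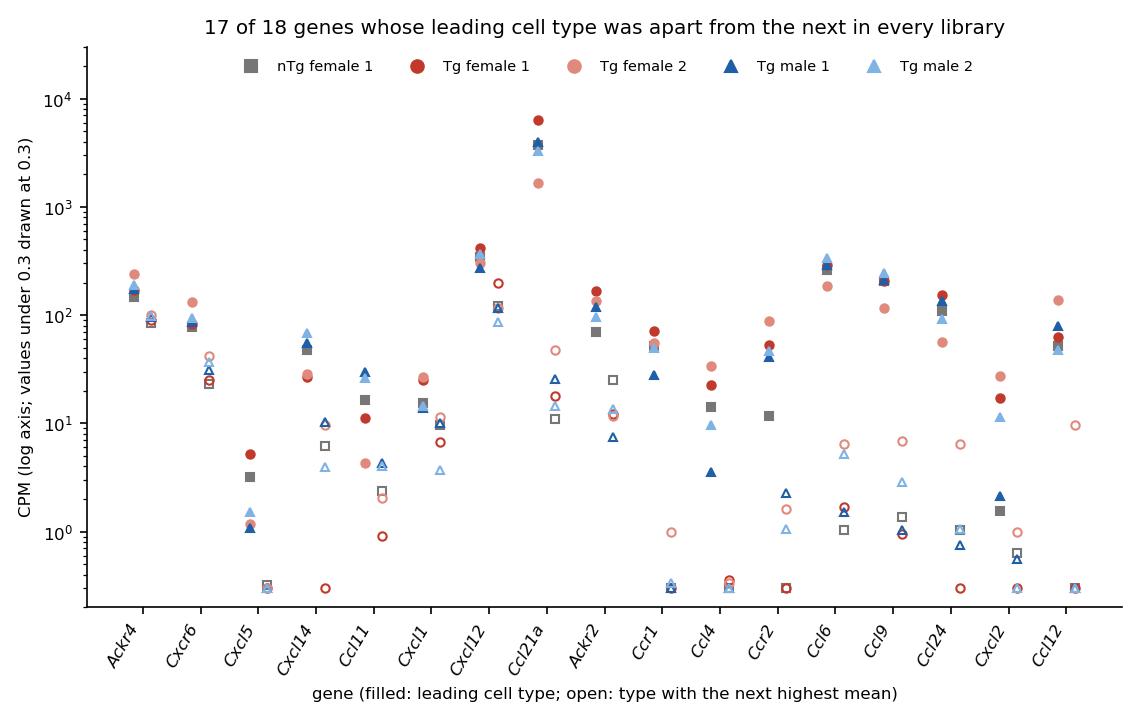
Level of 17 of the 18 genes that had 1 leading cell type apart from the next, in CPM on a log axis, with 1 point for each of the 5 libraries (filled for the leading type, open for the next, values under 0.3 drawn at 0.3). Filled and open points do not overlap for any of the 17 genes shown, and lie close for Ackr4 and Cxcl1 and far apart for Ccl21a and Ccr1.

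Among inflammatory CC ligands, macrophages carried a stable set and a variable set. Ccl6 and Ccl9, which act through Ccr1 and are typical of mouse macrophages, were the stable set. Ccl6 stood at 259, 288, 186, 290 and 335 CPM in macrophages, and Ccl9 at 206, 205, 117, 209 and 246 CPM, with the library labelled Tg female 2 lowest for both. No other main type passed 6.87 CPM of either. Ccl24, an eosinophil attractant of alternatively activated macrophages, reached 109, 152, 56.1, 134 and 91.8 CPM, against at most 6.44 in any pericyte, the next type. A UMI of Ccl24 was found in 18.7% of macrophage nuclei and 0.342% of fibroblast nuclei, whose median depths were 2244 and 2590 UMIs, and in 9.78% and 0.207% after thinning.

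The monocyte attractants Ccl2, Ccl7 and Ccl12 and the eosinophil attractant Ccl11 lie side by side on chromosome 11. Ccl2 in macrophages was 46.1, 66.8, 101, 14.3 and 16.3 CPM, with all 3 female libraries above both male ones. Fibroblasts held 2.57, 14.6, 27.1, 14.1 and 11.7 CPM of it, so the ranges of both types overlapped. Ccl2 was unevenly spread over nuclei. Its 272 macrophage UMIs lay in 139 of 2447 nuclei (5.68%), with up to 17 in 1 nucleus. Its 477 fibroblast UMIs lay in 148 of 12289 (1.20%), with up to 23 in 1 nucleus. Cardiomyocytes, with a deeper median, held a Ccl2 UMI in 0.198% of nuclei, and thinning gave 3.55%, 0.711% and 0.0616%. Ccl7 followed the same 2 types, with 13.3, 19.0, 43.8, 7.15 and 7.31 CPM in macrophages and 3.06 to 7.55 in fibroblasts. Ccl12 was nearly confined to macrophages, at 51.6, 63.2, 138, 78.6 and 47.9 CPM, and no other main type passed 9.70 CPM.

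Ccl11 instead was a fibroblast gene, with 16.4, 11.2, 4.32, 29.8 and 26.3 CPM, the lowest values being those of both libraries labelled Tg female. Ccl8, another monocyte attractant, varied widely over the libraries in macrophages: 21.9, 2.71, 1.02, 10.7 and 19.5 CPM. Ccl4, an attractant of monocytes and T cells, also varied, at 14.1, 22.6, 33.6, 3.57 and 9.75 CPM in macrophages, and stayed at or below 0.498 CPM in every other main type. Ccl5, a T cell attractant, had 7 UMIs in all macrophages, every one from the library labelled Tg female 2. Ccl17, which attracts T cells through Ccr4, reached no more than 1.56 CPM in any main type.

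The ligands of neutrophils came from different cells. Cxcl1 was highest in fibroblasts, at 15.3, 25, 26.9, 13.9 and 14.6 CPM, and endothelial nuclei, the next type, held 3.68 to 11.5 CPM. Cxcl5, of the same receptor, was a fibroblast gene too, at 1.08 to 5.19 CPM against at most 0.319 in endothelial nuclei. Cxcl2 was a macrophage gene, at 1.56, 17.2, 27.5, 2.14 and 11.4 CPM, and no other main type passed 1.33 CPM. Thus 2 neighbouring genes with the same NF-kappaB run upstream differed in their leading type, though the spread of Cxcl2 over libraries was wide. Of the interferon-induced T cell attractants, Cxcl9 was highest in endothelial nuclei in every library (5.04 to 11.8 CPM), and Cxcl10 stayed at or below 4.32 CPM in every main type.

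Among the main types, the inflammatory receptors Ccr1 and Ccr2 were highest in macrophages. Ccr1, a receptor of Ccl6 and Ccl9, was 51.6, 71.4, 55.1, 27.9 and 49.6 CPM, and below 1 in every endothelial value. Ccr2, the receptor that brings blood monocytes into tissue, was 11.7, 53.3, 87.7, 41.4 and 46.3 CPM, with the library labelled nTg female 1 lowest. Cx3cr1, a receptor of resident macrophages, was 138, 201, 136, 87.9 and 76.4 CPM, the 3 female libraries being highest. Cx3cr1 was also counted at 45.8 to 97.5 CPM in endocardium and at a mean of 29.0 CPM or more in every other main type. Its long gene model overlaps 9 other genes, among them Csrnp1 and Gorasp1 on the same strand and Ttc21a and Wdr48 on the opposite strand. Whether the counts outside macrophages come from Cx3cr1 or from these genes was not tested.

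Cxcr4, the signalling receptor of Cxcl12, was low in every main type. Macrophages held 28.9, 10.8, 5.10, 25.7 and 12.2 CPM and endothelial nuclei 11.5, 22.3, 6.98, 7.28 and 6.69 CPM, which overlap. Cxcr6 and Ccr9, receptors of T cells, were highest among the main types in cardiomyocytes: Cxcr6 at 77.5, 83.5, 132, 86.8 and 94.0 CPM and Ccr9 at 46.1, 66.8, 100.1, 55.1 and 64.1 CPM. The values for Ccr9 overlapped those of pericytes, at 27.0 to 67.6 CPM. Cxcr6 lies at chr9:123806475-123811760 on the plus strand, wholly inside Fyco1 of the opposite strand, whose own level was also highest in cardiomyocytes (303 CPM over all libraries, against 49.3 to 97.9 in the other main types). The strand setting of the counting is not given in the sources used here, so reads of the 2 genes cannot be told apart. Ccr9 shares 22.0% of its length with Lztfl1 on the opposite strand, and the same limit applies. It also shares 21.35% of its length with the noncoding gene Gm17200 on the same strand, where the strand of a read would not separate them. Ccr4 and Ccr10, receptors of T cells homing to skin, stayed at or below 6.87 CPM in every main type and library.

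The 4 atypical receptors had 4 different leading types. Ackr3, which takes up Cxcl12, was 206, 303, 300, 157 and 169 CPM in endocardium and 240, 292, 209, 228 and 125 CPM in lymphatic endothelium. Fibroblasts held 167 to 234 and endothelial nuclei 129 to 161 CPM, so that endocardium, lymphatic endothelium and fibroblasts overlapped and every fibroblast value was above every endothelial one. Macrophages were lowest, with a mean of 7.36 CPM. Ackr2, the scavenger of inflammatory CC ligands in lymphatic vessels, was a gene of lymphatic endothelium at 69.4, 166, 136, 119 and 97 CPM, against 7.44 to 25.1 in fibroblasts. A UMI of Ackr2 was seen in 22.2% of lymphatic nuclei and 0.163% of macrophages, and in 8.32% and 0.0433% after thinning. Ackr1, the receptor of venular endothelium and red cells, was low and among the main types led by fibroblasts, at 1.76 to 3.54 CPM. Pooled over libraries, Schwann cell nuclei, a rarer type, held 8.79 CPM from only 5 UMIs, against at most 2.49 in any main type. Ackr1 shares 26.43% of its length with Cadm3 on the same strand, where the strand of a read would not separate them. Whether its counts come from Ackr1 or from Cadm3 was not tested.

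Ackr4, which takes up Ccl19, Ccl21a and Ccl25, was counted mostly in cardiomyocytes: 146, 172, 241, 173 and 191 CPM. Fibroblasts followed at 85.3 to 99.99 CPM and did not overlap. With the depth of cardiomyocyte nuclei, 58.2% held a UMI and 16.5% after thinning, against 5.44% and 2.38% of macrophages. The gene model, at chr9:104084157-104126933 on the minus strand, lies wholly inside Acad11, a gene of fatty acid breakdown on the opposite strand. Acad11 itself was at 87.8 CPM in cardiomyocytes and 81.0 in fibroblasts, against 12.1 to 29.2 in the other main types. Its 2 highest types were those of Ackr4, whose means there were 185 and 94.2 CPM. Whether the Ackr4 and Cxcr6 counts in cardiomyocytes come from these genes or from their opposite-strand partners was not tested.

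Rarer immune nuclei carried 8 of the 40 genes at levels above every main type, beside 7.85% of the 19116 genes with as many UMIs (12.7% for any rarer type). Fewer than 50 nuclei per library stood behind each of these values, so they are pooled over libraries, with 95% exact Poisson intervals that cover counting error only. Ccr2 was highest in the 109 monocyte- or dendritic-like nuclei, at 896 CPM (802 to 998, 332 UMIs), and in each library alone they held 577, 972, 796, 831 and 1617 CPM. A UMI was seen in 71.6% of them and in 4.74% of macrophages. T- or NK-like nuclei (127 in all) followed for Ccr2, at 267 CPM. Ccl17 was found at 105 CPM (74.9 to 144) in monocyte- or dendritic-like nuclei, but 31 of its 39 UMIs were from the library labelled Tg female 1, as were 15 of the 21 UMIs of Ccl22, the other ligand of Ccr4.

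T- or NK-like nuclei led for Ccl5 (222 CPM, interval 173 to 281), for Cxcr6 (241 CPM, 190 to 302), for Ccr9 (106 CPM, 73.0 to 149) and for Ccl4 (96.4 CPM, 65.1 to 138). Ccl5 in them was uneven, with 16, 34, 4, 14 and 1 UMIs in the 5 libraries. Ccl4 had 3, 9 and 18 UMIs in the female libraries and 0 in both male ones. Xcl1, the lymphocyte ligand that calls cross-presenting dendritic cells, had 21 of its 26 UMIs in T- or NK-like nuclei, and its receptor Xcr1 had 28 of 41 in monocyte- or dendritic-like nuclei. B-like nuclei (78 in all) led for Cxcr5, which guides B cells into follicles, at 216 CPM (160 to 284), and for Cxcr4, at 60.4 CPM (33.0 to 101). Cxcr5 was seen in B-like nuclei of every library, with 11, 9, 12, 11 and 7 UMIs.

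Within endothelium, Ackr3, Cxcr4, Ackr2, Cxcl9 and Cxcl16 differed between clusters, while Ccl25, Ccl21a, Ackr4, Ccr9, Cxcr6 and Cxcl1 had ranges that overlapped in all 3. Cluster 11 was arterial-like (1749 nuclei, led by Gja5), cluster 7 was venous-like by its markers, with none of them among its 10 leading genes (1514 nuclei, led by Col13a1 and Il33), and cluster 5 (3757 nuclei, led by Kit and Car4) was nearest to capillaries and stayed unnamed. Cxcl12 was 393, 453, 334, 284 and 394 CPM in cluster 5 and 349, 430, 293, 376 and 416 CPM in cluster 11, and lower in each library in cluster 7, at 230, 304, 187, 148 and 214 CPM. Cxcr4 was counted in clusters 5 (6.53 to 19.7 CPM) and 11 (7.32 to 46.5 CPM), and cluster 7 held 0 UMIs of it. Ackr2 was highest in cluster 7, at 18.2 to 42.1 CPM, with 2.61 to 11.9 CPM in cluster 5 and 0 UMIs in cluster 11. Cxcl9 had 97 of 114 UMIs in cluster 5, the largest cluster, and 1 in cluster 11. Its levels in cluster 5 (7.82 to 19.8 CPM) overlapped those in cluster 7 (1.17 to 16.1 CPM). In the library labelled Tg female 2 cluster 7 was the higher. Ackr3 was highest in cluster 7, at 196 to 265 CPM, against 94.2 to 163 in cluster 5 and 83.1 to 127 in cluster 11. Cxcl16 was also highest in cluster 7, at 16.6 to 50.8 CPM against 3.52 to 9.15 in cluster 11.

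Fibroblast clusters differed in the atypical receptors Ackr3 and Ackr2 and in the ligand Cxcl14. Cluster 10 (led by Cd248 and Has2) held 404 to 551 CPM of Ackr3, against 53.4 to 81.7 in cluster 1 and 103 to 132 in cluster 3 (led by Fgf10 and Inmt). Ackr2 followed, at 121, 47.2, 37.6, 39.1 and 84.8 CPM in cluster 10 and at most 21.6 in any other. Ackr1 was at 5.75 to 12.6 CPM in cluster 10 and at most 6.59 in any other, and Ackr4, at 53.5 to 136 CPM over all 5 clusters, overlapped between every pair of them. Cxcl14 was the opposite, with 0 to 15.7 CPM in cluster 10 and 52.1, 22.6, 56.4, 78.7 and 101 CPM in cluster 3. Ccl11 was likewise highest in cluster 3, at 29.1, 22.6, 3.76, 49.96 and 39.1 CPM, except in the library labelled Tg female 2. Of the 477 fibroblast UMIs of Ccl2, 205 lay in cluster 8, of whose nuclei 57.9% came from the library labelled Tg female 2.

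**Figure D3:**
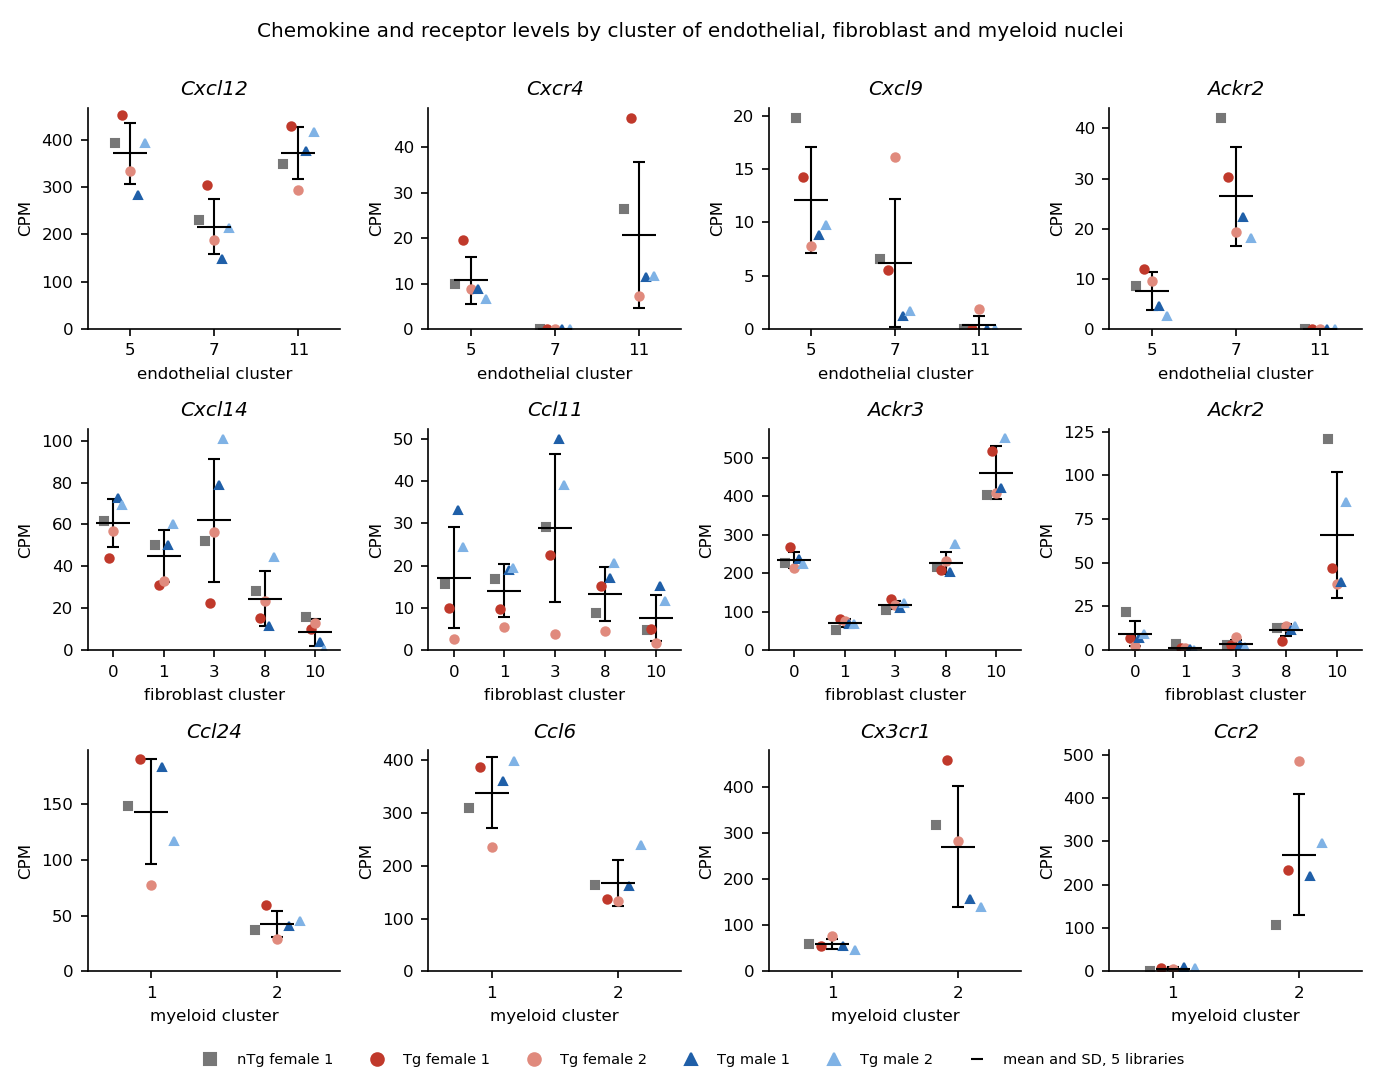
Levels of selected genes in the clusters of endothelial, fibroblast and myeloid nuclei, in CPM, with 1 point for each of the 5 libraries and a line and bar for their mean and SD. Cxcl12 is lowest in endothelial cluster 7, Ackr3 highest in fibroblast cluster 10, and Ccr2 and Cx3cr1 highest in myeloid cluster 2.

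Macrophage-like and monocyte- or dendritic-like nuclei were clustered again, and the 2 larger named clusters differed in ligands and in receptors. Myeloid cluster 1 (1269 nuclei, led by genes such as Vsig4) held more Ccl24 in each library, 148, 190, 77.2, 183 and 117 CPM against 28.6 to 59.8 in cluster 2 (696 nuclei, led by genes such as H2-Aa and Cd74, which present antigen). Ccl6 was 235 to 399 CPM in cluster 1 and 133 to 240 in cluster 2, Ccl9 164 to 304 and 90.6 to 172. Ccl8 was almost all in cluster 1, with 66 of its UMIs against 1 in cluster 2. Cluster 2 held Ccr2 at 108, 234, 486, 219 and 297 CPM and Cx3cr1 at 316, 458, 281, 156 and 138 CPM, against at most 9.68 and 77.2 CPM in cluster 1. Cxcl16 and Cxcl2 were also higher there, Cxcl16 at 73.4 to 176 CPM against 14.5 to 34.6, and Cxcl2 with 57 UMIs against 4. Ccl2 (59.3 CPM pooled over libraries in cluster 2, 44.2 in cluster 1), Ccl4 (26.7 and 10.98) and Ccl12 (90.7 and 66.1) were present in both, with ranges over libraries that overlapped. By its markers cluster 1 was named macrophage and cluster 2 monocyte or dendritic. Only 109 nuclei had that second name in the first clustering, so most of cluster 2 is counted as macrophages in all macrophage levels and tests given here. A further 448 shallow nuclei of this set had no named identity, and 65 were named fibroblast, with 55.4% of those from the library labelled Tg female 2. No fibroblast marker was among the 10 leading genes of these 65, which included Clnk, Clec9a and Ror1, so the name is uncertain.

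Ligand and receptor genes that form known pairs were set side by side for 34 pairs. In 16 pairs both genes had at least 50 UMIs, and in 8 of these both were highest in macrophages among the 8 main types. No share over other pairs of genes was counted beside this. In 2 of the 8, Ccl6 and Ccl9 with Ccr1, no rarer type stood above macrophages for either gene. Ccl2, Ccl7 and Ccl12 were macrophage-led, but their receptor Ccr2 was higher in monocyte- or dendritic-like nuclei, and Ccl5, a ligand of Ccr1 with 7 macrophage UMIs, was higher in T- or NK-like nuclei. For Cxcl12, the ligand was endothelial, while the receptor Cxcr4 was in macrophages, endothelium and B-like nuclei and the uptake receptor Ackr3 in endocardium, lymphatic endothelium and fibroblasts. Cxcl16 was in macrophages and endocardium, and its receptor Cxcr6 was counted in T- or NK-like nuclei and cardiomyocytes. The pairs of Ccl11 and Ccl24 with Ccr3 (5 UMIs), of Cxcl1, Cxcl2 and Cxcl5 with Cxcr2 (46 UMIs) and of Cxcl9 and Cxcl10 with Cxcr3 (12 UMIs) had the ligand without enough of the receptor to place it. Neutrophil-like nuclei were not among the named types. RNA levels of a pair do not show that the proteins meet.

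Female and male libraries labelled Tg differed in 2 chemokine genes: Ccl2 was higher in female macrophages and Cxcl14 lower in female fibroblasts. Summed UMIs per library and cell type were compared, 2 female against 2 male, with edgeR's quasi-likelihood test and Benjamini-Hochberg adjustment over all genes tested in a cell type, at 0.05. Of 108 tests of members over the 8 main types these 2 passed, while 0.182% of all tests of all genes passed. In cardiomyocytes, endocardium, endothelium, lymphatic endothelium, pericytes and smooth muscle 0 members passed, where 0.0265%, 0.186%, 0.178%, 0.183%, 0.117% and 0.202% of all genes did. The p-values measure only the spread between these libraries, which may be technical. The female side holds both the library labelled Tg female 1, with almost no Ccna2, and the library labelled Tg female 2, which stood apart.

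Ccl2 in macrophages stood at 66.8 and 101 CPM in the female and 14.3 and 16.3 CPM in the male libraries labelled Tg, a log2 difference of 2.43 (SE 0.29, edgeR adjusted p = 0.0142), where 0.143% of all genes passed in macrophages. Both female values were above both male values, and the library labelled nTg female 1, outside the test, was at 46.1 CPM. Macrophage nuclei with a Ccl2 UMI numbered 26, 35, 53, 14 and 11 in the 5 libraries. Within myeloid clusters, female values were 92.8 and 75.2 CPM in cluster 1 against 18.2 and 4.03 in the male libraries, and 34.2 and 248 against 12.6 and 39.5 in cluster 2, where they overlapped. The difference was 2.65 without the library labelled Tg female 1 and 2.13 without Tg female 2, and passed in both (edgeR adjusted p = 0.0004 and 0.0151). Without the library labelled Tg male 1 it was 2.31 and no longer passed (edgeR adjusted p = 0.119). Gm17268, which covers all of Ccl2 (chr11:82035571-82037453, plus strand) on the opposite strand, was 71.9, 97.6, 175, 36.4 and 39.8 CPM in macrophages, and the strand of the counted reads is not given in the sources used here. Macrophage markers summed to 14534 CPM in macrophages of the library labelled Tg female 2 and 19547 to 20283 in the others, and their part in this result, like that of the fibroblast markers given above, was not tested.

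In fibroblasts Ccl2 was 14.6 and 27.1 CPM in the female and 14.1 and 11.7 CPM in the male libraries, a log2 difference of 0.59 (edgeR adjusted p = 0.622). The difference between sexes was larger in macrophages than in fibroblasts by 1.85 on the log2 scale. This came from 1 edgeR model with an interaction of sex and cell type (adjusted p = 0.00624 over the 3 such comparisons made). The model had no term for library, so the macrophage and fibroblast sums of a library counted as separate samples. Ccl2 was compared because it had passed in macrophages in the same data, so this p-value is not independent support.

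Cxcl14 in fibroblasts was 27.0 and 28.6 CPM in the female and 55.0 and 68.0 CPM in the male libraries labelled Tg, a log2 difference of -1.23 (SE 0.18, edgeR adjusted p = 0.0389), where 0.398% of all genes passed in fibroblasts. The groups did not overlap, and the library labelled nTg female 1 was at 47.3 CPM, nearer to the males. Fibroblast nuclei with a UMI of it numbered 190, 170, 128, 259 and 240. Both female values were below both male values in 3 of 5 fibroblast clusters, above them in 1 and overlapping in 1. Cluster 3, where Cxcl14 is high, made up 5.86%, 4.15%, 1.64%, 8.65% and 10.7% of the nuclei of the 5 libraries, and the part of this in the result was not tested. Without the library labelled Tg female 1 or Tg female 2 the difference was -1.23 or -1.25 and passed (edgeR adjusted p = 0.0205 and 0.0246). Scaling by library size in place of TMM gave -1.15 and ended the call (edgeR adjusted p = 0.0778). The gene lies at chr13:56288643-56296551 on the minus strand. Its sex difference in fibroblasts was not distinguishable from that in cardiomyocytes (difference -0.44 on the log2 scale, edgeR adjusted p = 0.562) or endothelial nuclei (-0.24, adjusted p = 0.708).

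**Figure D4:**
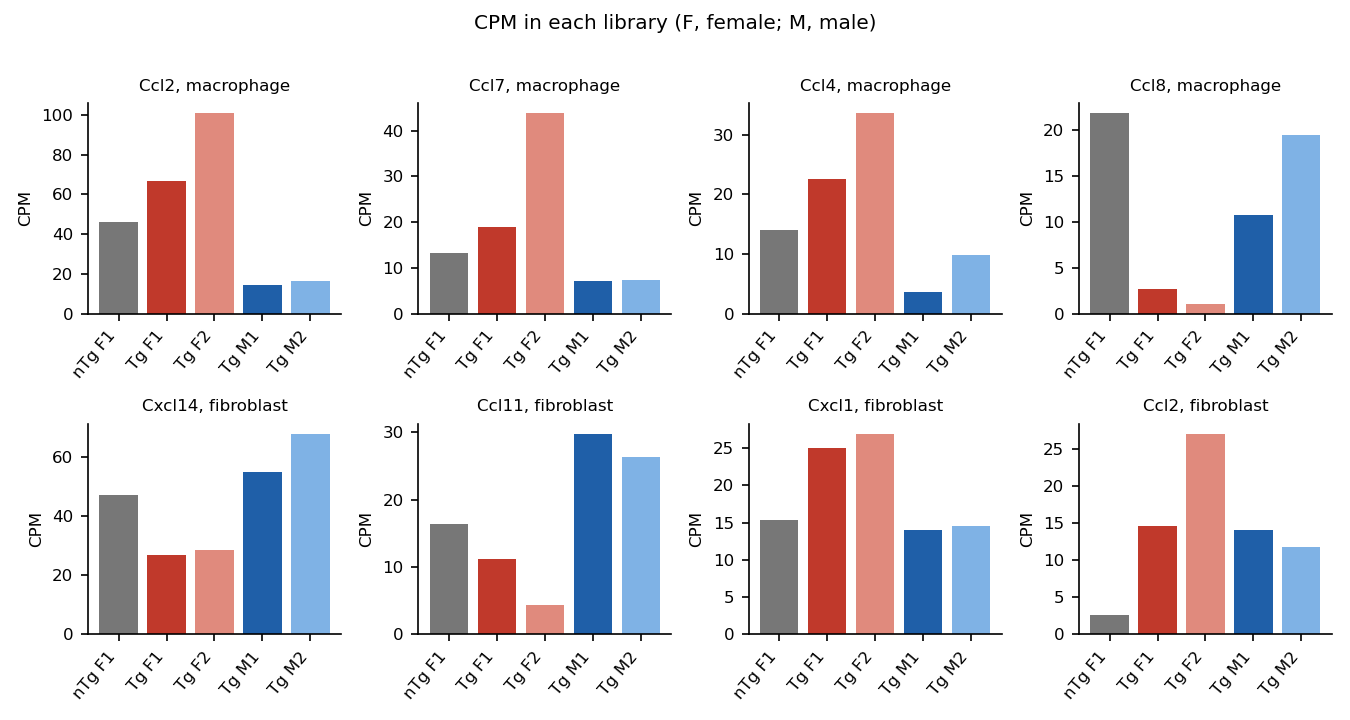
Level of 4 ligands in macrophages (upper row) and 4 in fibroblasts (lower row), in CPM from 0, with 1 bar per library coloured by label. Ccl2 in macrophages lies at 66.8 and 101 in the female and at 14.3 and 16.3 in the male libraries labelled Tg, and Cxcl14 in fibroblasts at 27.0 and 28.6 against 55.0 and 68.0.

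Other members had large differences that did not pass. In macrophages 13 of 23 tested members had an unadjusted p under 0.05, beside 8.49% of all genes tested there. The median log2 difference of the 23 was 0.56, beside 0.01 for all genes. Besides Ccl2 the 13 included Ccl7 (2.07, edgeR adjusted p = 0.230), Ccl4 (2.06, 0.249), Cx3cr1 (1.02, 0.244) and, on the male side, Ccl8 (-2.92, 0.234). They also included Ccl21a (0.94), which outside lymphatic endothelium was highest in the library labelled Tg female 2 in every main type. At clustering resolution 0.5, 4 of 25 members were under 0.05, with a median of 0.27, beside 568 of 11367 genes. By DESeq2 it was 8 of 23, beside 387 of 10465 genes. Of the larger myeloid clusters 0, 1 and 2, Ccl4 was above the males in both female libraries in 3 of 3. Ccl7 was so in 2 and overlapped in 1, and Ccl8 was below in 1 and overlapped in 2. These orders rest on few UMIs over the 5 libraries: 4, 38 and 46 for Ccl4, 7, 57 and 35 for Ccl7, and 4, 66 and 1 for Ccl8. Cluster 0 held too few to order the libraries. Cxcl12 also differed in macrophages, by 2.04 (adjusted p = 0.301), on 43 UMIs in all, with 14 of the 39 macrophage nuclei that held one in the library labelled Tg female 2. In fibroblasts 5 of 26 tested members had an unadjusted p under 0.05, beside 9.53% of all genes. Ccl11 had the largest difference of these, with -1.89 (SE 0.38, edgeR adjusted p = 0.102), and was lower in both female libraries in 5 of 5 fibroblast clusters. Under 6 of 13 alternative settings it did not pass. It passed with DESeq2, with no filter on low counts and with the replicate number as a block. Under these settings 229 of 15326, 737 of 24031 and 75 of 15326 genes passed in fibroblasts, against 61 of 15326 in the main fit. The other settings each left out 1 library, which leaves a lone library in a group. Over all 13 its difference ran from -2.82 to -1.39. Cxcl1 (0.78, adjusted p = 0.194) and Cxcl12 (0.84, 0.226) were on the female side. An unadjusted p under 0.05 was also found by edgeR for 2 of 14 members in cardiomyocytes, 2 of 11 in endocardium (Ackr3 and Ackr2, both on the female side) and 1 of 7 in pericytes, beside 7.05%, 7.39% and 6.65% of all genes. It was found for 0 of 16 in endothelium, 0 of 8 in lymphatic endothelium and 0 of 3 in smooth muscle, beside 9.13%, 6.36% and 4.78%. DESeq2 called 0 members in these 6 types, where it called 0.683%, 0.33%, 0.204%, 0.774%, 0.197% and 0.121% of all genes in the order given. It called 3 in all: Ccl2 in macrophages, beside 0.44% of all genes there, and Cxcl14 and Ccl11 in fibroblasts, beside 1.49%.

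**Figure D5:**
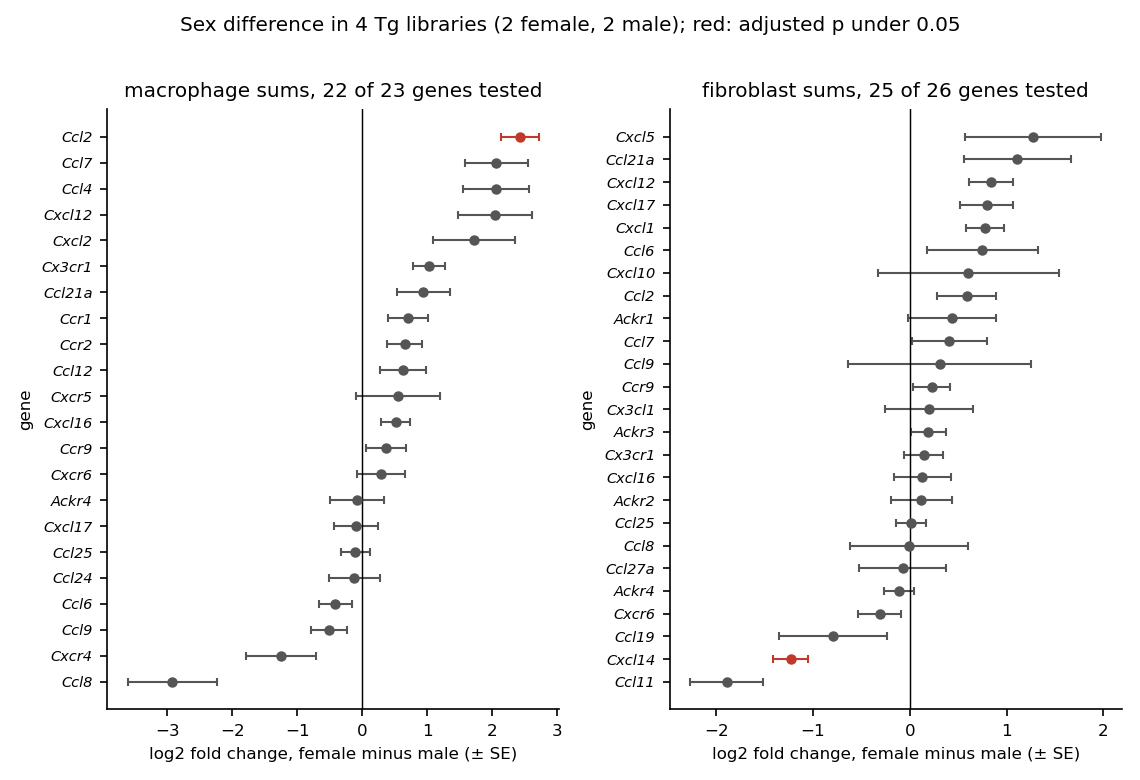
Log2 difference between female and male libraries labelled Tg for 22 of the 23 tested members in macrophages and 25 of the 26 in fibroblasts, with bars of 1 SE. Ccl2 in macrophages at 2.43 and Cxcl14 in fibroblasts at -1.23 are the members that passed the adjusted threshold.

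Genes that act with chemokines were taken from 5 lists: G protein and receptor regulators, migration signalling, transcription factors that induce chemokines, the inducers and their receptors, and chemokine-like ligands with scavengers and processing enzymes. None passed by edgeR in any main type, while DESeq2 called 4, of which 2 were in cardiomyocytes (beside 0.683% of all genes by DESeq2) and 2 in fibroblasts (beside 1.49%). At an unadjusted p under 0.05 edgeR gave 10 of 48 in macrophages, 5 of 45 in fibroblasts, 8 of 44 in endothelium and 7 of 45 in cardiomyocytes, beside 8.49%, 9.53%, 9.13% and 7.05% of all genes. It gave 6 of 32 in pericytes, 5 of 36 in endocardium, 3 of 15 in smooth muscle and 2 of 24 in lymphatic endothelium, beside 6.65%, 7.39%, 4.78% and 6.36%. In macrophages, 5 of the 12 tested transcription factors that induce chemokines were on the female side and 1 on the male side at that level, beside 8.49% of all genes in either direction, with a list median of 0.45. In the other types the same list had 0 on the female and 2 on the male side in endocardium and in pericytes, 0 and 1 in endothelium and in cardiomyocytes, 1 and 0 in lymphatic endothelium, and 0 in fibroblasts and smooth muscle. In fibroblasts, 4 of the 6 tested inducers and their receptors were on the male side, beside 9.53% of all genes in either direction, with a median of -0.62.

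Summed over all nuclei, 3 of 40 members in the library labelled nTg female 1 lay outside the values of the 4 libraries labelled Tg and at least 2-fold from their mean, beside 2.42% of all genes, and all 3 were lower in it (2 of 37 without the library labelled Tg female 2). Ccl2 was at 3.59 CPM there and at 7.04, 15.8, 5.05 and 4.06 CPM in the others (mean 7.99 ± 5.36, SD, n = 4). Cxcl2 was at 0.171 CPM, from 4 UMIs, against 0.688, 2.15, 0.218 and 0.628 CPM. Ccl19 was at 0.128 CPM, from 3 UMIs, against 0.622, 0.501, 0.945 and 0.418 CPM. With 1 library there is no replicate check, and Ccna2 goes against the label of this library. In sums over all nuclei, fewer cells of a type and less RNA per cell cannot be told apart. Within cell types, Ccl2 of this library was inside the range of the others in macrophages, at 46.1 CPM, and below all of them in fibroblasts, at 2.57 against 11.7 to 27.1 CPM. Fibroblasts made up 33.6% of its nuclei and 33.4% to 41.1% of those of the other libraries.

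The remaining members were rare or not seen. Between 1 and 49 UMIs were found for 16 rows, among them Cxcr1 (1), Cxcl15 (2), Ccr8 (4), Ccr6 (16), Cxcl13 (23), Ccl3 (28), Ccr7 (37), Ccl1 (37) and Ccl26 (43, of which 38 in macrophages and present there in every library). Cxcl3, a neutrophil attractant, had 10 UMIs, all in macrophages of the library labelled Tg male 2. Cxcl13, the B cell attractant, had 19 of its UMIs in macrophages, where it stood at 12.6 CPM in the library labelled Tg female 1 and at 0 to 2.86 CPM in the others. Ccr7, the receptor of Ccl19 and Ccl21a, had 13 of its UMIs in B-like nuclei. Ccl20, Ccl21b, Ccl21c, Ccl27b and Ccr1l1 had 0 UMIs, as did further copies of Ccl27a, Ccl19 and Ccl21a, and a count of 0 in these nuclei allows up to 0.0239 CPM. With 53 UMIs Ccl28 was the described member nearest to the minimum of 50, and with 46 Cxcr2 the nearest below it.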

How the data were processed

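Per the file headers, the authors made the deposited UMI counts with Cell Ranger 7.0.0, and per the submitters' processing notes the build is mm10. The matrices hold raw whole-number counts. Whether introns were counted, and on which strand, is not given in the sources used here. The members and all gene lists were chosen with earlier results of these data known. Members were all symbols that fit the stated prefixes. Those with at least 50 UMIs are described, those called between the sexes are named with all values, and the rest are counted or named with their total. A result on 1 member is not reported here.

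Barcodes with at least 200 genes and under 5% mitochondrial UMIs were kept, and doublets called by scrublet in scanpy 1.11.5 (expected rate 6%) were removed, 5.16% to 9.68% per library. In the library labelled Tg female 2 the caller's threshold marked too few, so the top 5% of scores were removed. Nuclei were clustered on 2000 variable genes, 30 components and 15 neighbours (Leiden, resolution 1) and named from marker lists. Between 14 and 28 barcodes were shared between any pair of libraries. UMIs were summed per library and cell type and tested with edgeR 4.0.16 in R 4.3.3 (TMM, filterByExpr), checked on simulated counts. DESeq2 1.42.0 and other filters, scalings and clusterings were alternatives. Replicate numbers did not pair libraries: correlations of same-numbered deviations were -0.00792 to 0.0761 over 8 types. Overlapping genes come from GENCODE for GRCm38, and promoter windows from RefSeq (GRCm38.p6). Ccl6, Ccl19, Cxcl10, Cxcl17, Ccr10 and Xcl1 also lie wholly inside a gene of the opposite strand. With the strand of the counting not given, whether reads of those genes were counted for them was not tested. Thinning drew 1000 UMIs per nucleus and left out shallower nuclei.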

Additional observations from a re-analysis of the deposited data

Results flagged for a closer look

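Ccl24, the eosinophil attractant of macrophages, had over all nuclei 7.85 CPM in the library labelled Tg male 1, while the other 3 libraries labelled Tg held 5.61 to 5.86 CPM. The gap to its neighbour was 0.887 of the whole range, above the 95% critical value of 0.829 for 4 samples. Of 80 such groups of 4 values examined 1 was marked, and chance marks about 1 in 20 groups. In macrophages alone Ccl24 of that library, at 134 CPM, lay below the 152 CPM of the library labelled Tg female 1.

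The sex difference of Ccl2, the monocyte attractant, was 1.85 larger on the log2 scale in macrophages than in fibroblasts by the test of the interaction of sex and cell type. That test had no term for library, and it was made because Ccl2 had passed in macrophages in the same data.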

How the results depend on the processing

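The 2 calls of members between the sexes became 1 with library-size scaling, 14 with no filter on low counts, 0 with 5 libraries and no genotype covariate, and 1 at clustering resolution 0.5. Calls among all genes moved too. In macrophages 15 of 10465 genes passed in the main fit and 411 of 19902 with no filter, and in fibroblasts 61 of 15326 and 737 of 24031. Library-size scaling left 17 of 15326 in fibroblasts, and resolution 0.5 left 1 of 11367 in macrophages. They ranged from 3 to 13 when 1 library was left out, with 13 without the library labelled Tg female 1, 8 without Tg female 2 and 4 without Tg male 1, where the lone library of its group is assumed to vary like the other. With the replicate number as a block, which does not pair these libraries, 3 members and 6 partner genes were called. The members were in fibroblasts and macrophages, where 75 of 15326 and 50 of 10465 genes passed in that fit. The partner genes were in cardiomyocytes, endocardium and endothelium, where 93 of 15071, 114 of 9702 and 358 of 12915 genes passed. The 0 partner genes became 4 with DESeq2, 14 with no filter, 1 with at least 10 UMIs in every library and 2 with 5 libraries and a genotype covariate, and 4 to 20 when 1 library was left out. Ccl2 in macrophages also did not pass with 5 libraries and no covariate (2.19) or at resolution 0.5 (2.05), and Cxcl14 in fibroblasts did not pass with 5 libraries and no covariate (-0.89). The 3 members of the library labelled nTg became 1 with at least 100 UMIs, and 2 to 6 when a library labelled Tg was left out, with 6 without Tg male 2. Genes with a leading cell type numbered 15 to 19 under all alternatives run, against 18. The cause of these changes was not tested. At this depth 27 of 67 member rows had under 50 UMIs and were not placed by cell type.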

Other observations

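Among nuclei left without a name, the cluster numbered 24 held 489 UMIs of Cxcl12 (181 CPM) and 390 UMIs of Ackr3 (145 CPM), and 82% of its nuclei came from the library labelled Tg female 2. These nuclei are in none of the levels given above for cell types.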
